A study of Homo sapiens with 80 samples.

Results

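H19, CDKN1C, PEG10, PEG3, MEST, SNRPN, NNAT, PLAGL1, GRB10 and ZDBF2 are imprinted genes that lie outside the imprinted cluster on chromosome 14. These 10 genes were taken by name from the 43388 gene entries of the deposited expression tables, and all 10 were listed both in the multi-omic table and in the RNA-only table. The study turned human pluripotent stem cells into cardiomyocytes with the Wnt activator CHIR99021 followed by the Wnt secretion inhibitor IWP2. The class of a differentiation, high or low purity, was set by its share of cells with cardiac troponin T on day 16. In the multi-omic experiment, wells of the induced pluripotent line WTC11 gave 25 high purity libraries (passage 52) and 31 low purity libraries (passage 69) on 8 days from day 0 to day 16, with 1 to 4 wells per class and day. In the RNA-only experiment, 24 libraries came from 6 differentiations, each sampled once at 4 stages: H9 embryonic stem cells (high purity passage 58, low purity passage 55), the induced line IMR90-4 (high purity passage 55, low purity passage 75) and WTC11 (high purity passage 81, low purity passage 69). Stage 1 was day 0, stage 2 was day 2 in WTC11 and day 3 in the other lines, stage 3 was day 4 or 5, and stage 4 was day 6 or 7.

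Imprinted genes are expressed mainly from the copy inherited from a single parent, and DNA methylation set in the egg or sperm marks which copy is silent. Many of them govern fetal growth. H19 and CDKN1C are growth restrainers read from the maternal copy in most tissues. GRB10 also restrains growth, and its use of the parental copies differs between tissues. MEST, PLAGL1, PEG10, PEG3, NNAT, SNRPN and ZDBF2 are read from the paternal copy, and MEST and PLAGL1 belong to a group of imprinted genes that is active in fetal mesoderm and falls after birth. Pluripotent cells are known to gain or lose imprints in culture. The tables hold the sum of both parental copies, so the parent of origin of a transcript was not analysed here.

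All wells of a class in the multi-omic experiment came from the same differentiation. Its effects of purity class, of passage and of the differentiation itself cannot be told apart, and its p-values measure the spread between wells. In the RNA-only experiment each cell line gave 1 differentiation per class, so a value for 1 culture has no replicate. Library depth ran from 6579715 to 18143597 reads in the multi-omic experiment and from 17990882 to 40357968 in the RNA-only experiment, and the high purity wells had the higher mean depth on days 0, 2, 4, 6 and 8. The first was made from poly(A) RNA and the second from total RNA, so levels are compared only within a table. The labelled cell types carried their markers. The summed level of 6 pluripotency markers lay between 5123 and 5727 TPM (read numbers scaled for transcript length and library size) in day 0 wells of the multi-omic experiment, and that of 6 cardiomyocyte markers on day 16 lay between 10158 and 12195 TPM in high purity wells and between 3329 and 4566 TPM in low purity wells.

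By median TPM over the 56 multi-omic libraries the order was PEG10, MEST, ZDBF2, NNAT, GRB10, PLAGL1, SNRPN, CDKN1C, H19 and PEG3. PEG10 had a median of 314 TPM, MEST of 118 TPM and ZDBF2 of 54.8 TPM, while SNRPN had 6.02 TPM and CDKN1C 0.512 TPM. H19 reached 1 TPM in 6 of 56 libraries and PEG3 in 0. The ranges of neighbouring genes in this order overlapped. In the RNA-only libraries the leading gene was MEST, with a median of 54.6 TPM, ahead of PEG10 with 30.6 TPM, and CDKN1C was at 3.55 TPM.

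**Figure D1:**
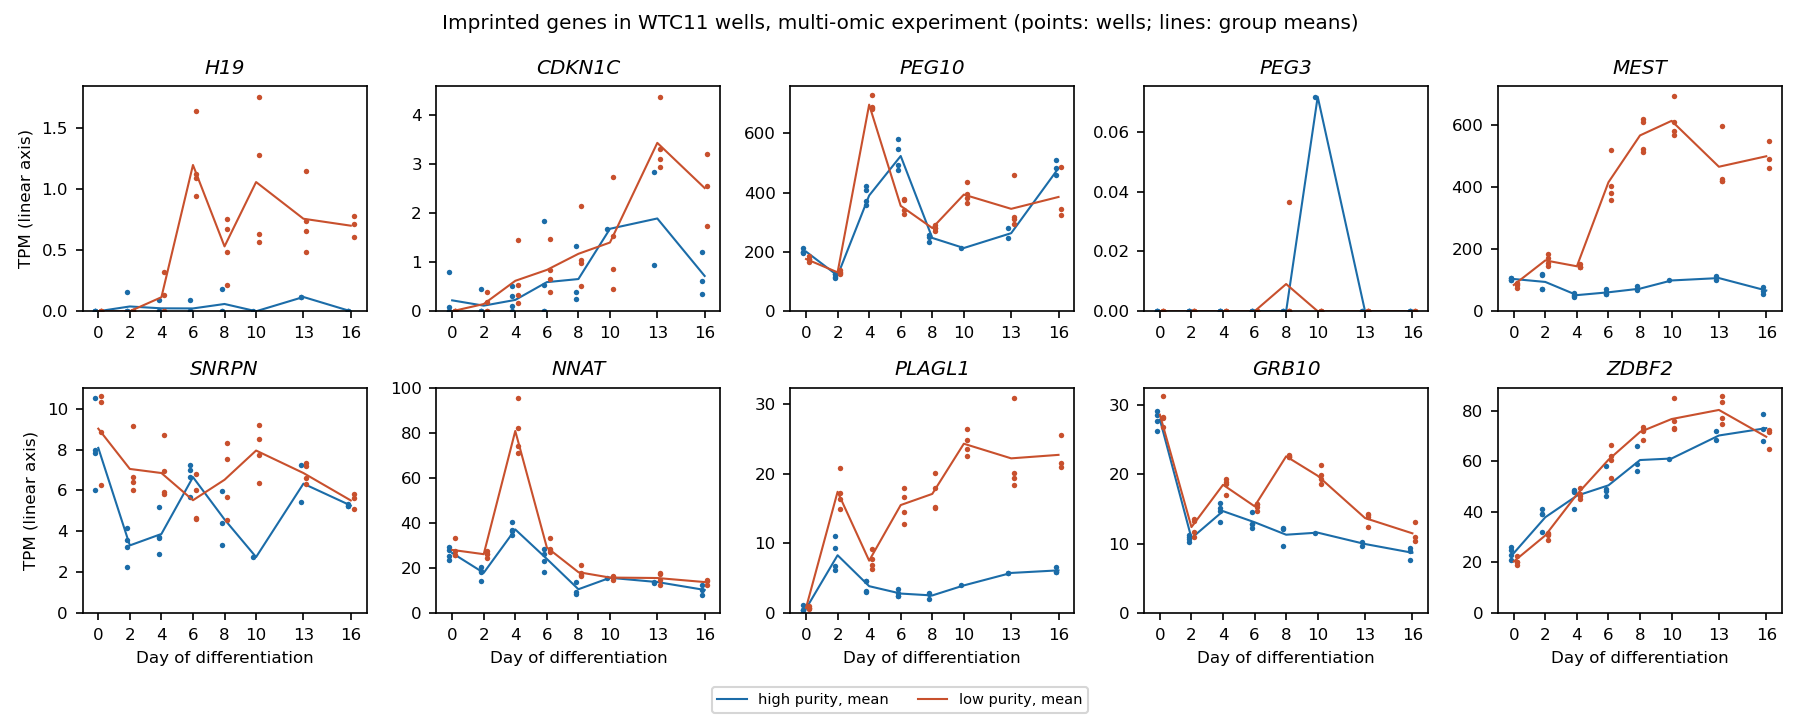
TPM of the 10 imprinted genes (linear axis, from 0) by day of differentiation in WTC11 wells; points are wells, lines join group means, blue is high purity and orange low purity. MEST and PLAGL1 separate by class from day 2 onwards. GRB10 ends lower and ZDBF2 higher than on day 0 in both classes, and no H19 point exceeds 1.76 TPM. The PEG3 points above 0 stand for 1 and 2 reads.

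MEST and PLAGL1 were higher in low purity wells from day 6 to the end of the time course. On day 6, 3 of the 9 members that passed the filter on low values were called between the classes, MEST, PLAGL1 and H19, and all 3 were lower in high purity wells. A gene was called when limma's Benjamini-Hochberg adjusted p was under 0.05 and the log2 fold change, on log2(scaled TPM + 1), was at least 1 in size; 8.80% of the 25664 genes tested were called on that day, 5.19% as lower in high purity. MEST and PLAGL1 were also the 2 members called on day 8, where 12.2% of genes were called (7.50% lower in high purity), on day 13 (10.8%, 6.23% lower) and on day 16 (13.4%, 7.65% lower). On day 4 the 2 members called were MEST and NNAT, both lower in high purity, with 7.84% of genes called and 4.22% lower. None was called on day 2, when 5.32% of genes were, or on day 0, when 1.07% were; on day 2, 5 of the 9 members had an unadjusted p under 0.05 in limma, and 1 had on day 0, where 44.0% and 25.7% of all genes had. DESeq2 on read numbers recovered from the TPM called 2 members on day 2 (9.91% of genes called) and none on day 0 (2.57%). With edgeR on those reads no member was called on day 2 (9.89% of genes called) or day 0 (2.40%). These cultures are mixtures, and in bulk RNA fewer cells of a type and less RNA per cell cannot be told apart.

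MEST, also called PEG1, codes for a protein of the alpha/beta hydrolase fold and lies at chr7:130486171-130506465 (GRCh38, GENCODE release 29, plus strand). On day 0 its level was 102, 106, 106 and 99.8 TPM in the 4 high purity wells and 89.6, 88.7, 75.2 and 86.1 TPM in the 4 low purity wells. High purity wells were the higher ones and the wells did not overlap, but limma gave a difference of 0.23 ± 0.14 (log2 fold change ± SE) with adjusted p = 0.321.

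By day 2 the order had turned, with 70.4 to 119 TPM in high purity and 145 to 186 TPM in low purity wells. On day 4 high purity wells held 53.2, 48.6, 59.6 and 46.5 TPM of MEST, and low purity wells held 151, 143, 143 and 143 TPM. On day 6 the high purity wells were at 61.5, 57.1, 55.3 and 70.6 TPM and the low purity wells at 405, 359, 382 and 519 TPM. The lowest low purity well was above every high purity well on each of these days.

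The difference in MEST, high minus low purity, was -0.76 ± 0.14 on day 2, which passed the adjusted p (1.30e-05 in limma) but not the fold threshold. It was -1.46 ± 0.14 on day 4, -2.75 ± 0.14 on day 6 and -2.71 ± 0.15 on day 8. On day 16 the high purity wells held 56.3, 66.4 and 77.9 TPM and the low purity wells 549, 460.5 and 490.0 TPM, a log2 fold change of -2.68 ± 0.16 with adjusted p = 1.23e-18 in limma. The single high purity library of day 10 held 99.3 TPM, against 569.8 to 694 TPM in the 4 low purity wells of that day. From day 2 on, no high purity well reached the level of any low purity well of its day.

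PLAGL1, which codes for a zinc finger transcription factor that restrains the cell cycle, lies at chr6:143940300-144064599 on the minus strand. It was near 1 TPM or below in undifferentiated cells of both classes, at 1.09, 0.508, 0.496 and 0.441 TPM in high purity and 0.668, 1.06, 0.702 and 0.550 TPM in low purity day 0 wells. On day 2 it stood at 9.38, 6.13, 6.74 and 11.0 TPM in high purity wells and at 17.3, 16.4, 14.9 and 20.8 TPM in low purity wells. The day 0 wells overlapped between classes and the day 2 wells did not.

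Both classes stood lower on day 4, at 3.00 to 4.67 TPM in high purity and 6.36 to 9.17 TPM in low purity wells, and low purity wells stood higher again on day 6. On day 6 the high purity wells held 2.39, 2.87, 2.43 and 3.49 TPM of PLAGL1 and the low purity wells 17.9, 12.8, 14.5 and 16.7 TPM, a log2 fold change of -2.10 ± 0.16 with adjusted p = 7.14e-15 in limma. By day 16 the high purity wells had 5.90, 5.89 and 6.60 TPM and the low purity wells 25.5, 21.0 and 21.5 TPM, a log2 fold change of -1.54 ± 0.18. The differences on days 2 and 4, -0.94 ± 0.16 and -0.81 ± 0.16, passed the adjusted p and missed the fold threshold. Leaving out high purity well 4 or low purity well 3 of day 2 brought PLAGL1 past the fold threshold on that day, up to -1.08.

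**Figure D2:**
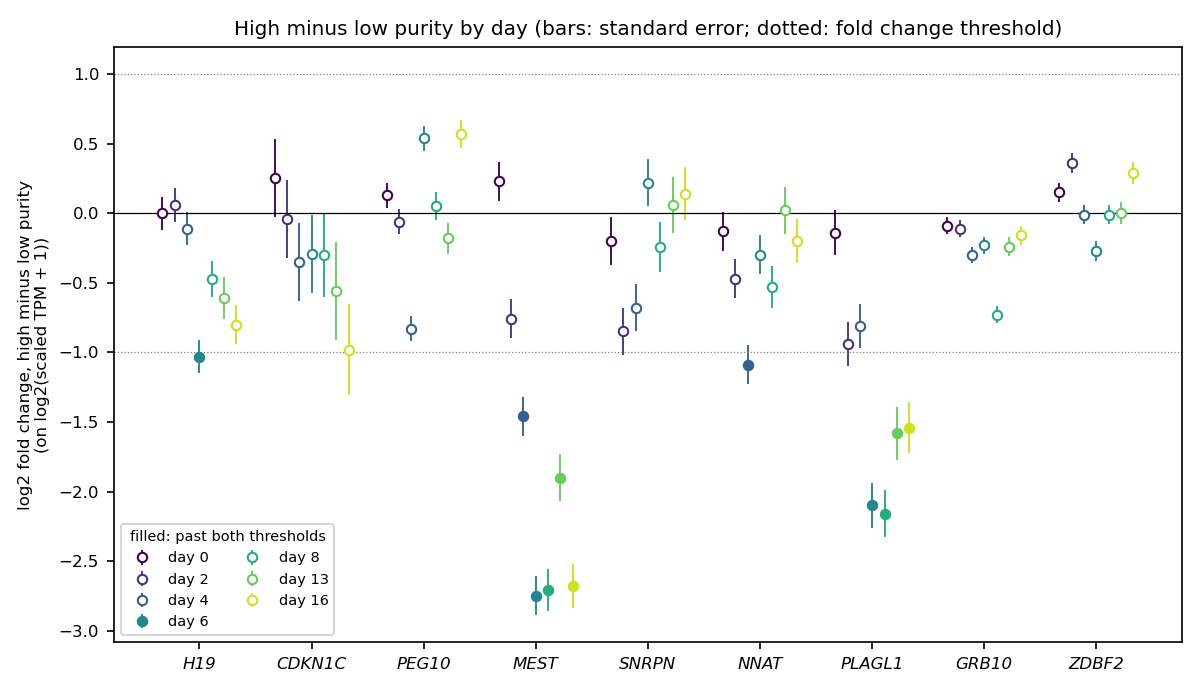
High minus low purity log2 fold change with its standard error for the 9 members that passed the filter, by day (day 10 has 1 high purity library and is not shown); filled points passed both thresholds and dotted lines mark a log2 fold change of 1 in either direction. MEST and PLAGL1 are filled on days 6 to 16, at values from -2.75 to -1.54.

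The promoters of MEST and PLAGL1 are shown because these members were both called on days 6, 8, 13 and 16 in the multi-omic wells. For each gene the RefSeq promoter window (GRCh38.p14, 250 bases before to 50 after a transcription start) with the most CpG dinucleotides was taken, and the 250 bases before the start are printed 5′ to 3′ with every CpG in capitals. The MEST stretch is chr7:130491835-130492084 on the plus strand and holds 20 CpG. The PLAGL1 stretch is chr6:144008260-144008509 on the minus strand and holds 32 CpG. The median over the 35116 RefSeq windows was 14 CpG per 300 bases.
MEST: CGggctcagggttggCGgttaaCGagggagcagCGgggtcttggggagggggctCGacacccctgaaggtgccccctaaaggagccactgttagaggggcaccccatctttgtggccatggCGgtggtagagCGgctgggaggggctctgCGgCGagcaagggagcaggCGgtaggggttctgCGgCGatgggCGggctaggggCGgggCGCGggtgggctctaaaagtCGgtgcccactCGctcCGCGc
PLAGL1: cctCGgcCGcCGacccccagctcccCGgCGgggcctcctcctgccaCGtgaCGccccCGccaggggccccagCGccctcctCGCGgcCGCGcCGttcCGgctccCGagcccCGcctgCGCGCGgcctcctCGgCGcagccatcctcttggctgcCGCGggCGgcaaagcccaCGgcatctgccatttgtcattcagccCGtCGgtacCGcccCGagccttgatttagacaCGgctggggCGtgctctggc
The zinc finger protein ZFP57 is known to bind a methylated TGCCGC hexamer at imprinted regions. TGCCGC, searched on both strands (its complement reads GCGGCA), was found in 16.7% of all windows. It occurred 3 times in the 300-base window of the MEST start shown, all in or overlapping the 50 bases after the start, and 2 times in that of PLAGL1, both before the start. RefSeq listed 22 windows for 6 of the members, and 9 of the 22 held the hexamer. CDKN1C, PEG10, PEG3 and NNAT are the other members. A match is a description of letters and shows no binding.

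Transcripts that share the MEST and PLAGL1 loci differed between the classes on the same days. The entry of MIR335, a microRNA gene inside MEST on the same strand, on day 6 held 51.0, 55.1, 10.3 and 29.9 TPM in the high purity wells and 202, 151, 113 and 139 TPM in those of low purity, a log2 fold change of -2.24 ± 0.42 (adjusted p = 2.20e-05 in limma). These are long-RNA reads over the hairpin and not mature microRNA. The mature sequences encoded there are given from RefSeq with the seed, bases 2 to 8, in capitals.
hsa-miR-335-5p: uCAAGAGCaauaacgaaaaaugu
hsa-miR-335-3p: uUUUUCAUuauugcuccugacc
COPG2IT1, a transcript from the neighbouring COPG2 gene, ranged on day 8 from 1.11 to 3.42 TPM in high purity wells and from 24.8 to 37.0 TPM in those of low purity, a log2 fold change of -3.08 ± 0.21. HYMAI, a noncoding RNA from the PLAGL1 promoter region, ranged on day 6 from 0.215 to 1.02 TPM in high purity wells and from 3.25 to 4.19 TPM in those of low purity (log2 fold change -1.49 ± 0.20). MESTIT1, antisense to MEST, did not follow MEST: on day 4 it held 1.22 to 1.99 TPM in high purity and 0.0974 to 0.566 TPM in low purity wells. Over the 16 group means of the multi-omic table, Pearson's r of log2(TPM + 1) was 0.94 between MEST and MIR335, 0.99 between PLAGL1 and HYMAI and 0.81 between MEST and PLAGL1; these points share days and differentiations. Over the 24 RNA-only libraries, which share lines and stages, the values were 0.74, 0.98 and 0.35. In GENCODE, 27.4% of the MEST exon length overlaps exons of COPG2, MESTIT1 or AC007938.2 on the opposite strand. Of the PLAGL1 exon length, 3.31% is shared on the same strand with HYMAI or RF02143, so part of the PLAGL1 and HYMAI signal may not be separate. The strand setting of the authors' counting is not given in the sources used here.

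**Figure D3:**
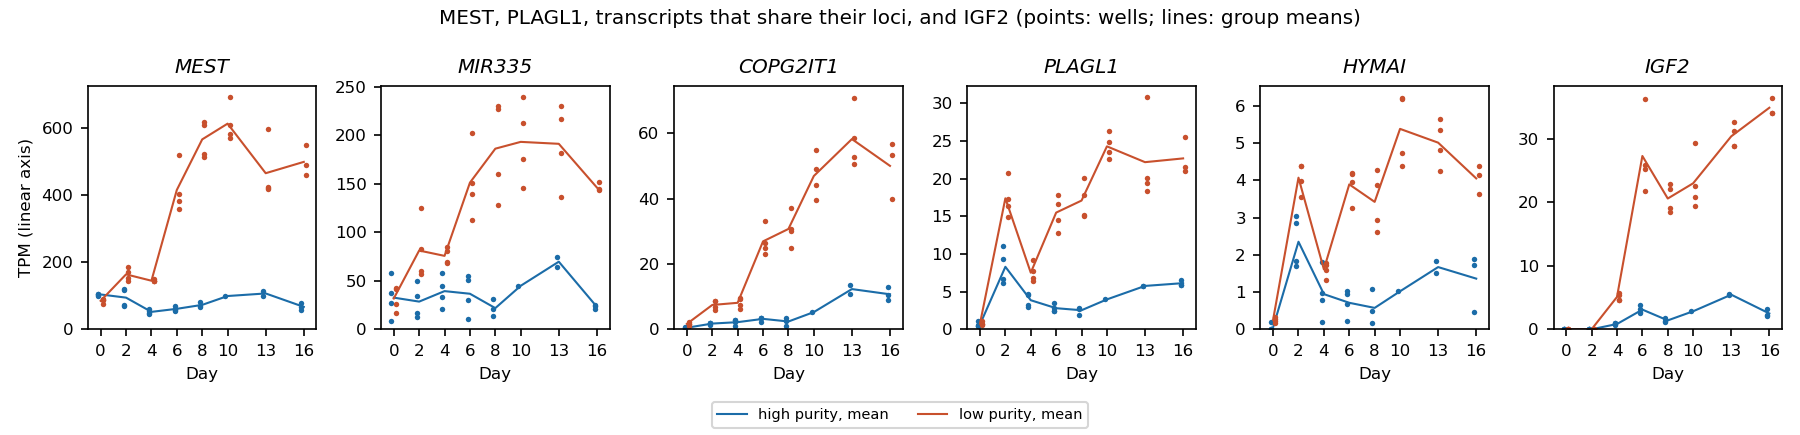
TPM by day (linear axes from 0, each with its own scale) of MEST with MIR335 and COPG2IT1, of PLAGL1 with HYMAI, and of IGF2, in WTC11 wells; points are wells and lines join group means, with high purity in blue and low purity in orange. The low purity line lies above the high purity line in every panel from day 6 on.

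Markers of several cell types differed between the classes on some of these days. Summed cardiomyocyte markers were higher in low purity wells on day 4, at 1224 to 1367 TPM against 117 to 154 TPM. That order was the opposite of day 16, and the sums overlapped on day 6. Summed pluripotency markers on day 6 were higher in high purity wells, at 1119 to 1307 TPM against 439.9 to 602 TPM. On day 4, 3 summed neuroectoderm markers were also higher there, at 309.8 to 412 TPM against 63.2 to 93.1 TPM. Of these 3, 1 was at 1 TPM or more in every well of that day. The summed level of 6 fibroblast and stromal markers (COL1A1, COL3A1, LUM, DCN, POSTN, PDGFRA) on day 6 lay between 709.7 and 973 TPM in high purity wells and between 2513 and 3909.6 TPM in those of low purity, and on day 16 between 454 and 542 TPM and between 8585 and 11634 TPM. On day 16 all 6 were at 1 TPM or more in every low purity well and 5 of 6 in every high purity well. The summed level of 6 amnion and trophoblast markers on day 6 lay between 74.9 and 108 TPM in high purity wells and between 762 and 1103 TPM in those of low purity, with 3 of the 6 at 1 TPM or more in every well of each class. By day 13 the amnion and trophoblast sums overlapped, at 161 to 182 TPM in high purity and 158 to 181 TPM in low purity wells. On day 16 they lay at 89.1 to 102 TPM and 129.6 to 136 TPM. On day 13, 6 of these 6 markers were at 1 TPM or more in every high purity well and 2 in every low purity well. On day 16 these numbers were 5 and 1, the opposite order to the sums. Summed endothelial markers overlapped on day 6 and on day 16 held 41.7 to 48.3 TPM in high purity and 119.9 to 189.7 TPM in low purity wells. On both days all 5 were at 1 TPM or more in every high purity well, but 1 of the 5 in every low purity well. The day 16 order by this number was the opposite of that by sum. Summed endoderm markers on day 6 were at 741 to 1153 TPM in high purity and 295 to 473 TPM in low purity wells. Their order was the other way on day 10 (882 TPM against 2125 to 2627 TPM), and they overlapped on day 13 (727 to 750.3 TPM and 609 to 1399 TPM) and on day 16 (74.2 to 476 TPM and 464 to 1244 TPM). The part of these cell types in the MEST, PLAGL1 and NNAT differences was not tested.

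H19, a long noncoding RNA and host of a microRNA, lies at chr11:1995176-2001470 on the minus strand next to IGF2. It was near the floor of detection in every group. All 25 high purity libraries together held 9 H19 reads, in 6 libraries, and all 31 low purity libraries held 148 reads, in 21 libraries. No read was found in the 8 wells of day 0; a count of 0 allows up to 3 reads per library.

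Low purity wells of day 6 held 1.64, 1.13, 1.09 and 0.946 TPM of H19, from 6 to 11 reads each, and 1 of the 4 high purity wells held 1 read (0.0923 TPM). The classes did not overlap. The fitted difference of -1.03 ± 0.12 (adjusted p = 1.91e-09 in limma) depends on the pseudocount of 1 TPM and was -3.35 with 0.1 TPM. Without low purity well 1 of day 6 it was -0.95, under the fold threshold. On days 8, 13 and 16 the differences of -0.47 ± 0.13, -0.61 ± 0.15 and -0.80 ± 0.14 passed the adjusted p but not the fold threshold. In the 24 RNA-only libraries H19 had 69 reads in all, and the highest value was 0.265 TPM, from 20 reads, in low purity WTC11 at stage 2.

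IGF2, the growth factor gene beside H19 that is read from the paternal copy, was at 0 in all 16 wells of days 0 and 2. On day 6 it held 3.26, 2.55, 2.69 and 3.88 TPM in high purity and 25.2, 21.8, 25.9 and 36.3 TPM in low purity wells, and on day 16 it held 2.09 to 3.15 TPM and 34.0 to 36.5 TPM. The day 16 log2 fold change of -3.24 ± 0.14 was the largest in size among the other imprinted genes called on any day. H19 remained at or under 1.64 TPM in the low purity wells of day 6 and at 0.609, 0.779 and 0.717 TPM on day 16.

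CDKN1C codes for the cyclin-dependent kinase inhibitor p57 and lies at chr11:2883213-2885773 on the minus strand. It was at 0 in all 4 low purity wells of day 0 and at 0, 0.0884, 0.800 and 0 TPM in the high purity wells. On day 16 it held 0.342, 1.20 and 0.618 TPM in high purity and 1.74, 2.56 and 3.21 TPM in low purity wells. The day 16 wells did not overlap, and the difference of -0.98 ± 0.33 (adjusted p = 0.0123 in limma) missed the fold threshold. Its change from day 0 to day 16 was called as different between the classes, at -1.23 ± 0.43 with adjusted p = 0.0222, and the call was lost with a pseudocount of 0.1 TPM, with edgeR on recovered reads and without high purity well 3 of day 0, high purity well 1 of day 16 or low purity well 3 of day 16 (-1.09 to -1.03 without these wells). The tables list a second CDKN1C entry that never exceeded 2 reads, so reads that fit both places could be missing from either. PHLDA2, a neighbouring imprinted gene with a second entry of its own, had 0 reads in every multi-omic library.

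GRB10, an adaptor protein that dampens insulin and growth factor receptor signals, lies at chr7:50590063-50793462. It was lower than on day 0 on every later day in both classes, but the fall was not steady. Low purity means were 12.4, 18.5, 15.4 and 22.6 TPM on days 2, 4, 6 and 8 and 11.5 TPM on day 16. High purity means on those days were 10.8, 14.7, 13.1, 11.3 and 8.70 TPM. Day 0 wells held 26.3 to 29.1 TPM in high purity and 26.8 to 31.3 TPM in low purity, and day 2 wells 10.2 to 11.3 and 10.9 to 13.6 TPM. On day 8 it was 12.3, 12.1 and 9.63 TPM in high purity and 22.8, 22.7, 22.5 and 22.5 TPM in low purity wells, with no overlap, and the difference of -0.73 ± 0.06 passed the adjusted p (3.49e-13 in limma) but not the fold threshold.

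PEG10, derived from a retrotransposon and needed in the placenta, lies at chr7:94656325-94669695 and had the highest median of the 10 genes. In the multi-omic wells it changed places between the classes. On day 4 it held 409, 357, 422 and 371 TPM in high purity and 688, 685, 683 and 728 TPM in low purity wells, and on day 6 it held 475, 546, 579 and 493 TPM and 375, 379, 341 and 326 TPM. Neither day's wells overlapped between classes, and the log2 fold changes were -0.83 ± 0.09 on day 4 and 0.54 ± 0.09 on day 6. Both passed the adjusted p (1.70e-10 and 2.75e-06 in limma) and missed the fold threshold. SGCE, the imprinted gene that shares its promoter region, had r = 0.57 with PEG10 over the 16 group means and 0.26 over the 24 RNA-only libraries.

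NNAT, a small membrane protein of developing brain that regulates calcium, lies inside BLCAP at chr20:37521206-37523693. Its day 4 level was 34.7, 37.0, 36.7 and 40.4 TPM in high purity and 74.4, 82.4, 71.2 and 95.8 TPM in low purity wells. The classes did not overlap, and the log2 fold change was -1.09 ± 0.14 (adjusted p = 2.04e-08 in limma), or -0.98 without low purity well 4. By day 6 the wells overlapped, at 18.2 to 28.3 TPM and 27.0 to 33.2 TPM. NNAT and BLCAP had r = 0.29 over the 16 group means and -0.06 over the 24 RNA-only libraries.

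ZDBF2, a zinc finger gene that acts in growth control through the brain, lies at chr2:206274663-206314438. It rose from 21.0 to 26.1 TPM on day 0 to 68.0 to 78.7 TPM on day 16 in high purity wells, and from 18.9 to 22.6 TPM to 65.0 to 72.5 TPM in low purity wells. The differences between classes were at most 0.36 in size on any day on the log2 scale. SNRPN, a splicing protein gene of the Prader-Willi region at chr15:24823637-24978723, was at 2.26 to 10.6 TPM over all 56 libraries. It was lower in high purity wells on days 2 and 4 (-0.85 ± 0.17 and -0.68 ± 0.17, adjusted p 5.06e-05 and 9.04e-04 in limma), again under the fold threshold. In GENCODE, 33.6% of its exon length is shared with SNURF, SNHG14 or AC124312.1, so its counts are uncertain.

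PEG3, a zinc finger gene at chr19:56810077-56840728, was at the floor of detection in these tables. It had 3 reads over 56 multi-omic libraries and 1 read over 24 RNA-only libraries. No library held more than 2 PEG3 reads, under the floor of 3. ZIM2 shares 12.9% of the PEG3 exon length, and 8505 bases are shared with no other gene; ZIM2 had at most 0.113 TPM in a multi-omic library and was listed at 0 in all RNA-only libraries. Every one of the 80 libraries was at or under the floor, across all 3 cell lines and both classes.

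The change with time was measured within each WTC11 differentiation. From day 0 to day 6, 3 members were called in high purity wells (PEG10, PLAGL1 and GRB10; 23.5% of genes called) and 5 in low purity wells (H19, MEST, PLAGL1, GRB10 and ZDBF2; 27.7%). MEST fell in high purity, by 0.99 on the log2 scale (SE 0.14, adjusted p = 2.69e-08 in limma, just under the fold threshold), and rose in low purity, by 1.99 ± 0.14. The difference between these changes was -2.98 ± 0.19 for MEST, -1.96 ± 0.22 for PLAGL1 and -1.03 ± 0.17 for H19, the 3 members called in that test (7.17% of genes called); edgeR and DESeq2 on recovered reads did not call H19. PEG10 and ZDBF2 passed its adjusted p with differences of 0.41 ± 0.13 and -0.42 ± 0.09.

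From day 0 to day 16, 5 members were called in high purity wells (35.4% of genes called) and 7 in low purity wells (34.1%). PLAGL1 rose by 2.38 ± 0.17 in high purity and by 3.79 ± 0.17 in low purity, and ZDBF2 by 1.81 ± 0.07 and 1.67 ± 0.07. GRB10 fell by 1.38 (SE 0.06) and by 1.31 (SE 0.06), and NNAT fell by 1.10 (SE 0.15) and by 1.04 (SE 0.15). The NNAT call was lost in high purity without well 3 of day 16 (-0.97), and in low purity without well 2 of day 0 (-0.96), without well 2 of day 16 (-0.97) or without scaling factors (-0.98). PEG10 rose by 1.48 ± 0.10 and 1.04 ± 0.10; without low purity well 1 of day 16 the low purity value was 0.87, under the fold threshold. MEST rose by 2.49 ± 0.15 in low purity and CDKN1C by 1.85 ± 0.30, and neither was called in high purity. The change to day 16 was called as different between classes for MEST (-2.90 ± 0.21), PLAGL1 (-1.41 ± 0.24) and CDKN1C, where 13.4% of genes were called. These comparisons share their day 0 wells.

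In the RNA-only experiment the 3 lines gave 1 high and 1 low purity differentiation each. edgeR's quasi-likelihood test, with line and stage as blocks, called 0 of the 8 members tested at each of the 4 stages, and 0 genes of 23848 (0% called). At an unadjusted p under 0.05 there were 0, 1, 2 and 2 members at stages 1 to 4 and 354, 1896, 1798 and 2876 genes. DESeq2 also called 0 members at each stage, where it called 0%, 0.319%, 0.214% and 0.860% of genes at stages 1 to 4. The fitted differences, high minus low, for MEST were -0.15, 0.63, -0.16 and -0.95 at stages 1 to 4, and those for PLAGL1 were 0.74, -0.13, -0.40 and -0.67.

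GRB10 and PEG10 were the members with an unadjusted p under 0.05. The test takes the libraries of the 4 stages as independent, though each differentiation gave all 4, so agreement between stages is not replication. GRB10 was lower in the high purity culture of each line at stages 2, 3 and 4, by fitted differences of -0.38, -0.52 and -0.64 (unadjusted p 0.0144, 0.00236 and 5.14e-04 in edgeR; adjusted p = 0.206 at stage 4). At stage 4 it held 2.21 TPM in high and 4.15 in low purity H9, 2.62 and 3.17 TPM in IMR90-4, and 2.69 and 4.44 TPM in WTC11. PEG10 had -0.45 at stage 3 and -0.57 at stage 4 (unadjusted p 0.0134 and 0.00325 in edgeR; adjusted p = 0.242 at stage 4). At stage 4 its high purity cultures of H9, IMR90-4 and WTC11 held 26.5, 28.2 and 49.5 TPM and its low purity cultures 29.5, 41.1 and 97.5 TPM.

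The lines did not move alike. In H9, MEST at stage 3 held 54.4 TPM in the high purity culture and 182 TPM in the low purity culture, and at stage 4 46.1 and 234 TPM. In IMR90-4 the order was the other way, with 33.1 and 13.8 TPM at stage 3 and 21.8 and 13.7 TPM at stage 4. WTC11 held 78.5 TPM in the high purity culture and 24.2 TPM in the other at stage 2, 40.3 and 33.1 TPM at stage 3, and 41.6 and 88.7 TPM at stage 4. The multi-omic WTC11 wells of day 2 had the opposite order to the RNA-only WTC11 cultures of day 2, with 70.4 to 119 TPM in high purity wells and 145 to 186 TPM in low purity wells. Leaving out 1 line at a time moved the fitted stage 4 difference in MEST between -1.75 and -0.18, and the stage 3 difference between -0.89 and 0.66. Whether the lines differ was not tested, since each has 1 culture per class.

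PLAGL1 stood highest in the low purity H9 culture at the later stages. It held 7.18 TPM there at stage 3 and 7.75 TPM at stage 4, 3.48 and 5.16 times the highest of the 5 other cultures, which ranged from 0.756 to 2.06 TPM at stage 3 and from 0.828 to 1.50 TPM at stage 4. High purity H9 held 1.14 and 1.09 TPM. The other lines had the opposite order, with 1.65 TPM in high and 0.756 in low purity IMR90-4 at stage 3 and 1.15 and 0.828 TPM at stage 4. WTC11 held 2.06 and 1.55 TPM at stage 3 and 1.50 and 1.35 TPM at stage 4, also the opposite of the multi-omic WTC11 wells of days 4 and 6. Leaving out 1 line at a time moved the fitted PLAGL1 difference between -1.28 and 0.65 at stage 3 and between -1.37 and 0.35 at stage 4. At stage 1 PLAGL1 held 0.156 TPM in low purity H9 and 0.0885 to 0.297 TPM in the others. MEST in the same culture was 3.35 and 2.64 times the highest other culture at stages 3 and 4. At stage 2 MEST was higher in high purity H9 (189 TPM) than in low purity H9 (162 TPM).

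Neighbouring transcripts and IGF2 had the same order in H9. HYMAI held 2.26 and 2.25 TPM in the low purity culture at stages 3 and 4 and 0.390 and 0.677 TPM in the high purity culture. MIR335 held 43.5 and 81.7 TPM and 15.8 and 16.0 TPM. IGF2 held 4.70, 11.0 and 13.9 TPM at stages 2 to 4 in low purity and 0.392, 0.987 and 2.22 TPM in high purity. The summed fibroblast and stromal markers stood at 796 and 1561 TPM in low purity H9 at stages 3 and 4 and at 221 and 404 TPM in high purity H9; at stage 4 they were 195 and 289 TPM in low and high purity IMR90-4 and 165 and 259.5 TPM in low and high purity WTC11. The part of these cells in the H9 values was not tested.

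**Figure D4:**
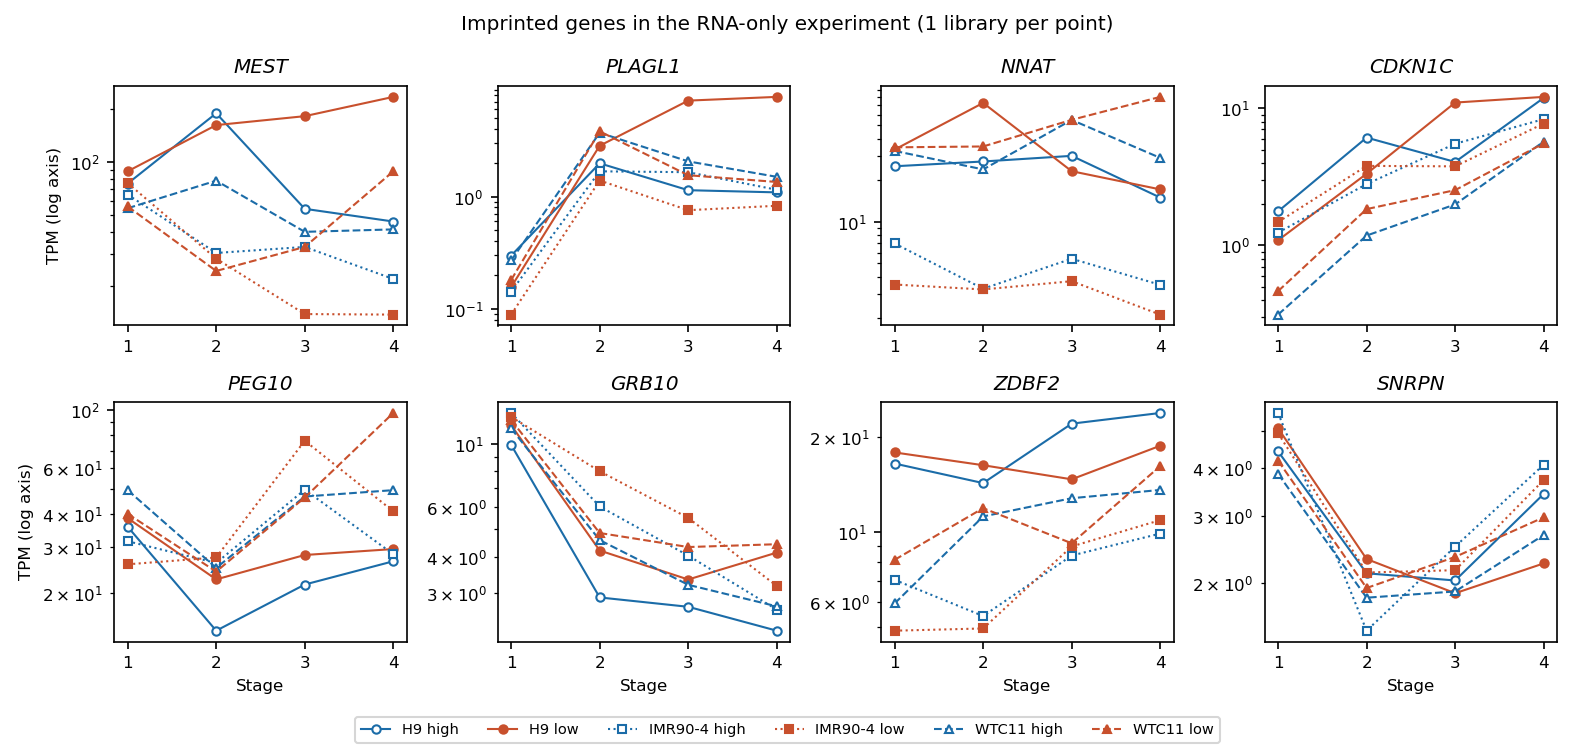
TPM (log axis) of the 8 members with more than trace levels at stages 1 to 4 in the 6 RNA-only differentiations, 1 library per point; filled orange is low purity, open blue high purity, and symbols and line styles mark the cell line. MEST and PLAGL1 stand highest in low purity H9 (solid, filled) at stages 3 and 4, and NNAT is lowest in both IMR90-4 cultures (dotted).

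Losses and gains confined to 1 culture were sought with a fixed fold. A gene was low in 1 culture when the lowest of the 5 others was at least 4 times its TPM at all 4 stages, with the others at 1 TPM or more, and high in 1 culture when it was at least 4 times the highest of the others at all 4 stages and at 1 TPM or more. By their levels, 6 of the 10 members (PEG10, MEST, SNRPN, NNAT, GRB10 and ZDBF2) could have been low in 1 culture and 7, these and CDKN1C, high in 1 culture; H19, PEG3 and PLAGL1 could meet neither rule. None of those members met either rule in any of the 6 cultures. Of the 10908 to 11102 genes that could be low in a given culture 0% were, and of the 21109 genes at 1 TPM or more in at least 1 RNA-only library 0% to 0.00474% were high in 1 culture. The same rule for both cultures of a line against the other lines, which 7 members could meet, was met by 0. Of the genes that could be low in H9 (11314), IMR90-4 (11066) and WTC11 (11233), 0.124%, 0.0813% and 0.0890% were, and 0.0663% to 0.213% of the 21109 genes were high in 1 line. With the culture rule asked at 3 or more of the 4 stages, 0 members met it. IGF2, from the list of other imprinted genes, was then high in low purity H9, as were 0.152% of the 21109 genes (32 with IGF2). No test applies, since a culture has no replicate.

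The nearest to a loss in 1 line was NNAT in IMR90-4. Its high purity culture held 6.98, 3.28, 5.41 and 3.50 TPM at stages 1 to 4 and its low purity culture 3.52, 3.24, 3.72 and 2.13 TPM. The 4 cultures of H9 and WTC11 ranged from 15.0 to 80.5 TPM, so no value overlapped. With a fold of 2, or at 3 of 4 stages, NNAT met the line rule as the single member that did; with a fold of 2, 12 of the 11066 genes that could be low in IMR90-4 were (0.108%).

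Cell lines were then compared on counts summed per differentiation, with edgeR and a term for purity (2 residual degrees of freedom). NNAT was the 1 of 9 members called between IMR90-4 and WTC11, at -3.38 on the log2 scale (adjusted p = 0.0392; 0.788% of genes called). Between H9 and IMR90-4 the NNAT difference was 2.84 with adjusted p = 0.0576. ZDBF2 was the 1 member called there, at 1.23 (adjusted p = 0.0358; 0.550% of genes called), and held 14.3 to 23.9 TPM in H9 and 4.85 to 10.9 TPM in IMR90-4. Between H9 and WTC11 0 members were called (1.57% of genes called), 4 had an unadjusted p under 0.05 in edgeR, as did 5763 of the 26912 genes, and DESeq2 called 2 (6.93% of genes called). PEG10 was lower in H9 than in WTC11 by 0.79 on the log2 scale with adjusted p = 0.0414, under the fold threshold: it held 14.4 to 38.7 TPM in H9 and 24.2 to 97.5 TPM in WTC11. Leaving out differentiations ended these line calls. NNAT between IMR90-4 and WTC11 was not called without any 1 of the 4 differentiations compared (-3.95 to -2.87), and ZDBF2 between H9 and IMR90-4 was not called without either IMR90-4 differentiation (1.24 and 1.21).

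Change over stages was shared by the lines for part of the list. From stage 1 to stage 4, with the differentiation as a block, edgeR called 3 of 8 members (39.5% of genes called). CDKN1C rose by 3.22 on the log2 scale (adjusted p = 3.79e-08), from 0.313 to 1.77 TPM at stage 1 to 5.55 to 12.1 TPM at stage 4. PLAGL1 rose by 3.19 (adjusted p = 3.56e-06), from 0.0885 to 0.297 TPM to 0.828 to 7.75 TPM. GRB10 fell by 1.79 (adjusted p = 1.66e-08), from 9.90 to 12.8 TPM to 2.21 to 4.44 TPM.

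In each of these 3 genes all 6 differentiations lay on 1 side of their own stage 1 value. ZDBF2 rose by 0.82 (adjusted p = 2.31e-04) and SNRPN fell by 0.46 (adjusted p = 0.00979), both under the fold threshold. MEST (-0.47), PEG10 (0.24) and NNAT (-0.24) did not pass, with adjusted p of 0.376, 0.380 and 0.528. For MEST the 6 differentiations moved in different directions: it went from 88.7 to 234 TPM in low purity H9 and from 76.1 to 13.7 TPM in low purity IMR90-4.

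Other imprinted genes outside chromosome 14 gave the setting. Of 30 listed, 29 were in the tables and 24 passed the multi-omic filter; 7 of the 24 were called between the classes on at least 1 day. The numbers called on days 0, 2, 4, 6, 8, 13 and 16 were 0, 2, 3, 5, 6, 4 and 4. On those days 1.07%, 5.32%, 7.84%, 8.80%, 12.2%, 10.8% and 13.4% of all genes tested were called. The share of all genes called on at least 1 day was not worked out. KCNQ1OT1, the noncoding RNA of the CDKN1C domain, on day 8 held 9.38, 10.8 and 9.04 TPM in the high purity wells and 45.5, 39.1, 37.1 and 43.2 TPM in those of low purity, a log2 fold change of -1.76 ± 0.09. TFPI2, a protease inhibitor near PEG10, was the one named by the rule that was higher in high purity, at 8.29 to 11.8 TPM against 2.31 to 3.51 TPM on day 8 (1.64 ± 0.21). The median difference on day 6 was -0.29 over the members tested, -0.15 over the other imprinted genes and 0.00 over all genes.

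Of 4 listed genes that guard imprints, 3 passed the multi-omic filter. TRIM28, the co-repressor recruited by ZFP57 and ZNF445, fell from 371 ± 19.8 TPM (SD, n = 4) on day 0 to 103 ± 3.13 TPM (n = 3) on day 16 in low purity and from 459 ± 12.2 to 105 ± 7.39 TPM in high purity wells. On day 4 it was higher in high purity wells by 0.77 ± 0.05 (adjusted p = 6.28e-18 in limma), and ZNF445 by 0.63 ± 0.07, both under the fold threshold. DPPA3, which protects maternal imprints in the early embryo, stood on day 0 at 1.41 ± 0.530 TPM in high purity and 1.44 ± 1.04 TPM in low purity (SD, n = 4 each) and at most 2.36 TPM in any multi-omic library. The entry named ZFP57 was listed at 0 in all 80 libraries. It has further entries in the tables, of which 1 held up to 10 reads (0.809 TPM) in 24 of 56 multi-omic libraries and up to 6 reads in 3 RNA-only libraries, all WTC11, and another held 1 read in 1 library, so the ZFP57 level is uncertain.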

How the data were processed

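The multi-omic experiment was deposited by the authors as TPM and read counts of poly(A) RNA, and the RNA-only experiment as TPM and counts of total RNA, per the labels' protocols. The submitters' processing notes name STAR 2.5.3a, featureCounts 2.0.3 and hg38. The annotation and the strand setting of the counting are not given in the sources used here. The names of the 56 multi-omic count columns do not match those of the TPM columns: 0 hold the reads of their namesake, 50 hold those behind a TPM column under another name and 6 those of none. Of the 32 TPM columns of days 0 to 6, 32 were nearest to a WTC11 RNA-only library of the same day, against 6 of the 32 count columns, so the deposited TPM were used there. Whole reads were recovered from these TPM (100% of values whole within 0.05) for 37194 genes; 6194 genes gave none.

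Multi-omic TPM were divided by TMM factors and fitted as log2(TPM + 1) with limma 3.58.1 (limma-trend, 16 group means, 40 residual degrees of freedom) for 25664 genes at 1 TPM or more in at least 3 libraries. A call needed an adjusted p (Benjamini-Hochberg) below 0.05 together with a log2 fold change of at least 1 in size. RNA-only counts were tested with edgeR 4.0.16 (quasi-likelihood, 23848 genes; 8 residual degrees of freedom between classes and 15 between stages), and line pairs on counts summed per differentiation (26912 genes, 2 residual degrees of freedom). DESeq2 1.42.0 was an alternative, as were other pseudocounts, scalings and filters, a replicate block and leaving out libraries. R was version 4.3.3. A well number did not pair wells. Exact permutation of 4 wells against 4 could not go below p = 0.0286, nor 3 against 3 below 0.1. The scripts were tested on simulated data.

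All 10 members were named, with the 4 other imprinted genes of the largest class difference and 4 imprint-keeping genes; MIR335, HYMAI and MESTIT1 were added as locus neighbours after their values were seen. The members and lists were chosen with earlier results of these data known. The RNA-only counts of 6 genes, whose lines were damaged, were left out.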

Additional observations from a re-analysis of the deposited data

Results flagged for a closer look

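Of 80 groups of 4 wells (10 genes), 6 held a well whose distance from its nearest neighbour was large against the range of its group, where chance marks about 1 in 20 groups, or 4 of these. PEG10 stood at 728 TPM in well 4 of low purity day 4 (683 to 688 in the others) and at 458 TPM in well 1 of low purity day 13 (295 to 316). MEST stood at 151 TPM in well 1 of low purity day 4 (143 in each other well) and at 598 TPM in well 1 of low purity day 13 (419.9 to 426). PLAGL1 stood at 30.8 TPM in that same well of day 13 (18.4 to 20.1), so 3 members were high in it. ZDBF2 was low in well 2 of high purity day 4, at 41.0 TPM (47.9 to 48.6).

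The change over time differed between the 2 WTC11 differentiations in limma's test of the difference for 4 members. The values, high minus low purity, were -1.03 for H19 to day 6 (adjusted p = 8.01e-06), -1.23 for CDKN1C to day 16 (adjusted p = 0.0222), -2.98 and -2.90 for MEST to days 6 and 16 (adjusted p = 2.23e-16 and 2.04e-15) and -1.96 and -1.41 for PLAGL1 (adjusted p = 2.64e-09 and 6.65e-06). In the RNA-only libraries NNAT was higher in high than low purity IMR90-4 at all 4 stages (mean log2 difference 0.45) and lower in high than low purity WTC11 at all 4 (mean -0.51, with 54.8 and 54.9 TPM at stage 3). That difference between lines was not tested.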

How the results depend on the processing

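The fold threshold decided most counts: with adjusted p alone, the members called between classes were 5, 6, 6, 5, 4 and 6 on days 2, 4, 6, 8, 13 and 16, 7 and 8 from day 0 to day 6 in high and low purity, 5 and 5 for the differences in change to days 6 and 16, 5 from stage 1 to 4, and 1 between H9 and WTC11. Of all genes tested, 37.4%, 36.8%, 39.9%, 44.1%, 35.9% and 43.0% passed adjusted p alone on those days, 57.8% and 62.5% to day 6, 22.1% and 34.8% for the differences in change, 65.3% from stage 1 to 4 and 1.72% between those lines. On day 2 a pseudocount of 0.1 gave 2, no scaling 1, and DESeq2 2 (9.91% of genes called, against 5.32% in limma). Leaving out 1 well gave 0 to 1 on day 2 and 1 to 2 on day 4. Between H9 and WTC11 DESeq2 gave 2 (6.93% of genes called, against 1.57% in edgeR). There line means alone gave 1, and leaving out 1 differentiation gave 0 to 3. Between H9 and IMR90-4 DESeq2 gave 3 (5.51% of genes called, against 0.550% in edgeR). No filter gave 2 there, line means alone 3 and leaving out 1 differentiation 0 to 4. Between IMR90-4 and WTC11 leaving out 1 gave 0 to 0. The share of all genes called under the other alternatives is not given here. The members low in 1 line were 1 with a fold of 2 and 1 at 3 of 4 stages.

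The multi-omic count table under its own column names, an alternative added after seeing the data, reversed 23 of 37 member values, most of them changes over time. Between classes MEST was -2.95, -2.13, -0.78, -1.79 and -0.89 on days 4, 6, 8, 13 and 16, and PLAGL1 was -2.43, 0.36, -1.31 and -0.82 on days 6, 8, 13 and 16; the change to day 16 differed by 1.60 for MEST and 0.92 for PLAGL1. It called 3, 1, 1, 1 and 0 members on days 0, 2, 8, 13 and 16, 0 in low purity to day 6, 2 and 3 in high and low purity to day 16, and 0 for each difference in change. The share of all genes called under these names is not given here, so these counts say nothing about the members as a set. The cause of the reversals was not tested. With the well number as a replicate block all 37 called values kept direction and call (correlations of same-numbered wells -0.018 to 0.032 over 24 pairs). Without scaling factors the median of all genes on day 8 was -0.18 against -0.03, and GRB10 in low purity to day 6 (-0.85) and NNAT in low purity to day 16 (-0.98) fell under the fold threshold. Without low purity well 4 of day 4 NNAT was -0.98, and without high purity well 4 of day 6 PLAGL1 in high purity was 0.99. Depth limits H19, CDKN1C and PEG3, which rest on few reads.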
